A study of Mus musculus with 8 samples.

Results

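Transcription 3 h after release from a mitotic block, named late G1 in the authors' table, was compared with transcription in the block itself, gene by gene. The assay was PRO-seq, a run-on method: in nuclei taken from the cells, polymerases already on a gene add labelled nucleotides to the RNA they are making, and the labelled RNA is sequenced. The cells were a clonal line of mouse induced pluripotent stem cells carrying the FUCCI2 cell-cycle reporter, grown on irradiated feeder cells in KO-DMEM with FBS, LIF and inhibitors of MEK and GSK3 (2i), all of which the groups share. Mitotic cells had received nocodazole, a microtubule poison, at 200 ng/ml for 6 h and were collected by shake-off. Late G1 cells were collected the same way and then kept for 3 h in fresh medium. Cells released for 1 h (early G1 in the table) and untreated asynchronous cells are cited beside them for orientation. The table's column names were tied to the release times by meaning, which the labels do not spell out. The comparison uses 4 of the 8 libraries, 2 in each group, and 14467 of the 14861 genes listed: those above 0 in both columns and with a mean of at least 0.5 over the 4 columns.

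During mitosis most RNA polymerase II leaves the condensed chromosomes, and transcription of most genes is low until the chromosomes decondense. Polymerase returns as cells leave mitosis and enter G1, when the daughter cells must again transcribe the genes that define their identity. In cycling cells a set of genes for the spindle, kinetochores and mitotic kinases is transcribed mainly in G2 and held low in G1. Pluripotent stem cells divide quickly and have a short G1.

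The deposited table holds 1 combined value per gene and group. Those values proved to be the mean of 2 libraries, each a whole number of reads per kb of counted length times a scale factor of its own, and the reads behind them could be recovered for 10958 genes. For those genes values are given below for each library, as scaled reads per kb. The libraries are numbered 1 and 2 within a group, since the order could not be tied to the replicate letters of the labels. For all other genes the authors' combined value is given, which has no replicate check. Among the genes named below, the RefSeq spans of Bcl2l11, Ccna2, Ccnd1, Eif4g2, Esrrb, Gpr132, Kpna2, Oxa1l, Pfkm, Pim1, Pkm, Pole2, Ppp1r15a, Saa3, Sfi1, Slc29a4, Slc2a3, Smc4, Sox2, Srebf2, Srsf2, Srsf4, Tubb4b and Wnt6 overlap another annotated gene, so their signal may include reads of that gene. The reads were used for a test across genes, limma's voom fit with Benjamini-Hochberg adjustment, over the 10455 genes with at least 20 reads in the 4 libraries. The labels do not say that libraries of a group came from separate cultures, so its p-values measure the spread between these samples, which may be technical.

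The recovered reads came to 1581371 and 1371038 in the mitotic libraries and to 2925936 and 2396231 in the late G1 libraries, with a median of 73, 65, 142 and 115 reads per gene. Across genes the log2 values of the mitotic libraries correlated at 0.859 with each other, and those of the other groups at 0.940 to 0.955. The mitotic libraries correlated with libraries of other groups at 0.809 to 0.873, a range that spans their correlation with each other. Genes are not independent replicates, and these coefficients are descriptions. Defining markers of pluripotent stem cells were in place: 7 of 8 listed markers were in the table, none at 0, with a summed signal of 45.1 in mitosis and 984 in late G1. Of 30 listed fibroblast markers, which the feeder cells could contribute, 17 were in the table, and their summed signal was 6.82 in mitosis, with 2 of them at 0, and 195 in late G1.

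Transcription was far higher in late G1 than in mitosis at nearly every gene. In the authors' columns the late G1 value exceeded the mitotic one at least 2-fold at 14432 genes, which is 99.8% of those compared, and 1 gene was at least 2-fold lower (0.00691%). The median gene was 21.9-fold higher, so that in mitosis it had 4.57% of its late G1 signal. The ratio was under 16.2-fold at the 25th percentile of genes and 30.6-fold at the 75th, and it ran from 8.89-fold at the 5th to 63.4-fold at the 95th. In the fit with the table's scale factors 10319 genes rose (98.7% of 10455) and 0 fell, both at an adjusted p under 0.05 and at an unadjusted p under 0.05 (limma). Of the 10014 genes with reads in all 4 libraries, 9988 had both late G1 values above both mitotic values, and none had both below. The groups therefore did not overlap at these 9988 genes.

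**Figure D1:**
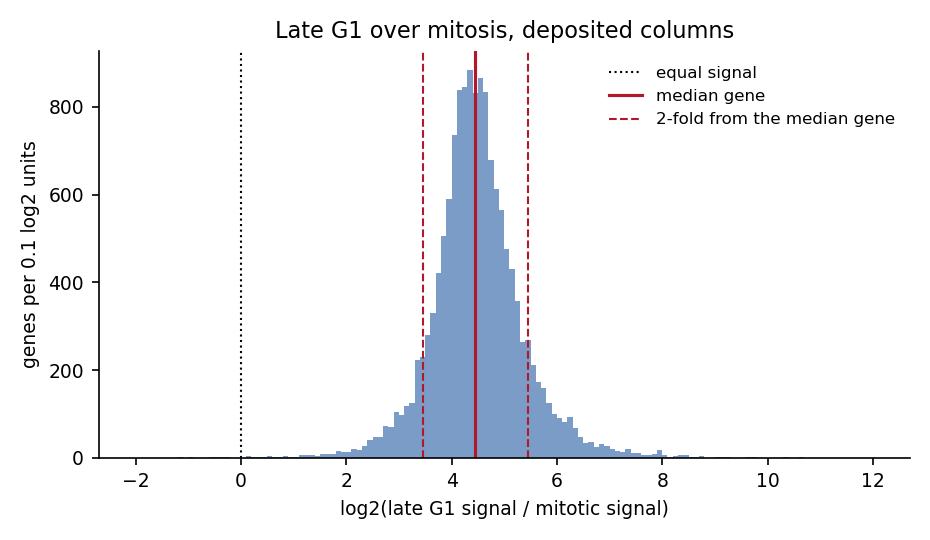
Histogram of the log2 ratio of late G1 over mitotic signal in the authors' combined columns, for 14467 genes in steps of 0.1. The solid line is the median gene at 4.45, the dashed lines lie 2-fold from it, and the dotted line is equal signal, which nearly all genes exceed.

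Most of the size of this rise came from the scale factors that the authors applied, not from the number of reads. One read per kb is worth 0.0835 and 0.0682 in the mitotic libraries and 1 and 0.755 in the late G1 libraries. Over the 4 pairings of a mitotic with a late G1 library the scale factors differ by 9.04-fold to 14.7-fold, while the reads themselves differ by a median of 1.54-fold to 2.12-fold. The sources used here do not say how the factors were set, and no spike-in value was used. In raw reads, 7193 of 10652 genes had more reads in both late G1 libraries than in both mitotic ones and 385 had fewer. Raw reads also depend on depth. The late G1 libraries held 2925936 and 2396231 recovered reads, against 1581371 and 1371038 in mitosis, so these counts do not separate depth from a rise. Fewer transcribing cells and less transcription per cell cannot be told apart in bulk samples. With the columns set to equal totals instead, the median log2 ratio was 0.18, with 2108 genes higher by 2-fold or more and 876 lower by as much. A factor common to a group drops out when genes are set against the median gene, so genes are described from here on relative to it.

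Relative to the median gene, 1596 genes (11.0%) were at least 2-fold above and 1239 (8.56%) at least 2-fold below in the combined columns, and 11632 (80.4%) stayed within 2-fold. With each library centred on its median gene, limma called 458 genes above it (4.38%) and 496 below it (4.74%). The counts given below for gene lists are to be read against these shares of all genes, and a count near them does not set a list apart. The number of calls depended on single libraries. Without late G1 library 1 there were 226 above and 145 below, and without late G1 library 2 there were 285 and 252. Without mitotic library 1 there were 793 and 1100, and without mitotic library 2 there were 667 and 740. In every one of these 4 fits 156 of the 458 genes and 118 of the 496 were called again, and none of the 954 changed sign.

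**Figure D2:**
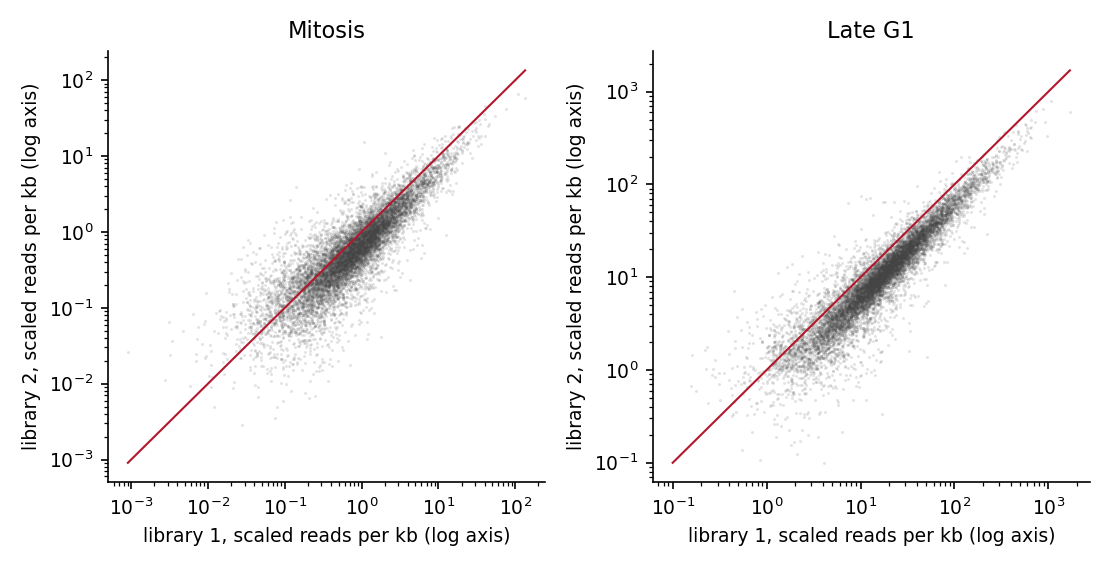
Scaled reads per kb of each gene in library 1 (horizontal) and library 2 (vertical) of mitosis (left) and late G1 (right), on log axes, with the line of equal values. After centring on the median gene, libraries of mitosis differed by a median of 0.48 on the log2 scale and those of late G1 by 0.27, so points scatter more widely in mitosis.

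Genes of G2 and mitosis had the smallest median ratio of the 26 gene lists. All 47 compared members exceeded their mitotic value at least 2-fold, but their median rise was 9.49-fold, against 21.9-fold for all genes. A total of 28 were at least 2-fold below the median gene and none was 2-fold above it. Limma called 20 of 37 tested members below the median gene and 0 above (27 and 0 at an unadjusted p under 0.05). That count was 10 without late G1 library 1 and 12 without late G1 library 2, and 9 of the 20 were called in every fit without 1 library. The members' median signal was 1.14 in the block and 10.2 in late G1, beside 12.6 in early G1 and 21.4 in untreated cells.

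Ccnb1, which encodes cyclin B1, the partner of CDK1 that drives entry into mitosis (chromosome 13, TSS at 100786571, minus strand), had values of 4.22 and 3.88 in the mitotic libraries and 20.2 and 14.2 in late G1. Both late G1 libraries were above both mitotic ones, but by far less than at most genes. Its reads went the other way, with 283 and 318 in mitosis and 113 and 105 in late G1. The rise was 4.24-fold, a log2 difference of -2.34 ± 0.29 (SE) from the median gene with an adjusted p of 7.65e-05 (limma). Cenpf, a kinetochore protein gene, had 1.68 and 0.790 in mitosis and 6.36 and 4.54 in late G1, a 4.41-fold rise and -2.19 ± 0.25 relative to the median gene (adjusted p = 4.31e-05). Cenpa, which encodes the histone variant that marks centromeres, had 2.45 and 2.04, then 10.1 and 9.50, a 4.36-fold rise (adjusted p = 0.000522). Mki67, the gene of the proliferation marker Ki-67, which coats mitotic chromosomes, had 1.88 and 1.03, then 7.46 and 6.07, a 4.66-fold rise (adjusted p = 7.65e-05). With the table's scale factors the groups did not overlap at these 3 genes either. The same held at 9988 of the 10014 genes with reads in every library, so it does not set them apart.

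Other members were not called or had no reads to test. Ccna2, which encodes cyclin A2, had 1.99 and 2.03 in mitosis and 54.3 and 36.5 in late G1, a 22.6-fold rise that differed from the median gene by 0.08 ± 0.28 on the log2 scale (limma adjusted p = 0.90). Ttk, a spindle checkpoint kinase gene, rose 24.2-fold with a difference of 0.39 ± 0.37 (adjusted p = 0.566), and neither p shows that the gene rose as the median gene did. The highest member, Ndc80, a kinetochore subunit gene, was 31.9-fold higher, but on 0 and 3 mitotic reads and 2 and 6 late G1 reads, too few to be tested. Plk1, a mitotic kinase gene whose reads could not be recovered, went from 0.844 to 5.38 in the combined columns, 6.38-fold, or -1.78 relative to the median gene.

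Promoter sequences of the lowest and highest member are shown because the G2 and mitosis list differs from other genes in the letters it carries there. CCAAT is the box bound by the factor NF-Y, and TTTGAA is the core of the cell cycle homology region, an element of many promoters of late cell-cycle genes. Both were searched on both strands from 250 bases before to 50 bases after the RefSeq start, in the 8545 compared genes whose RefSeq start (GRCm38.p6) lies within 100 bases of the table's. Capitals mark matches to CCAAT in the first sequence, and to CCGGAA, TGACGTCA and TTTGAA or their reverse complements in the second. The Ccnb1 promoter lies at chr13:100786437-100786736 and the Ndc80 promoter at chr17:71526808-71527107, both on the minus strand and written in the direction of transcription.
Ccnb1: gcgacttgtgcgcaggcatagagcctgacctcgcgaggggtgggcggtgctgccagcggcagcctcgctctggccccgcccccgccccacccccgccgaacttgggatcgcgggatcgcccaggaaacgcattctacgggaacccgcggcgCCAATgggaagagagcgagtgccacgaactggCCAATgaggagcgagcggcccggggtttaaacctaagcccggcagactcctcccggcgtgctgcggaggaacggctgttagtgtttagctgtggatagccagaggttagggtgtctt
Ndc80: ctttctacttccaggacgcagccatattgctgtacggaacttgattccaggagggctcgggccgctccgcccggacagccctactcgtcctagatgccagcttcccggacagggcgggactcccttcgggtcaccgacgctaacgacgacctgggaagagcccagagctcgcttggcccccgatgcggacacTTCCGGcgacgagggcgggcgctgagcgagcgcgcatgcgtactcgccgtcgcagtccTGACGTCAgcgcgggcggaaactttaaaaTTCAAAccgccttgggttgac
The CCAAT matches of Ccnb1 begin at -99 and -67 of the RefSeq start. The TTTGAA match of Ndc80, on the reverse strand, begins at 30 past the RefSeq start. The start in the authors' table lies 85 bases upstream of the RefSeq start for Ccnb1 and 52 bases downstream of it for Ndc80. Counted from the authors' start, the Ndc80 match is therefore upstream. TTTGAA was found in 25 of 33 promoters of the list (75.8%) and in 11.0% of all 8545. CCAAT was found in 27 of 33 (81.8%), against 39.3% of all. Neither is particular to this list. CCAAT was found in 10 of 11 promoters of replication histones and in 11 of 13 of cholesterol genes, whose list median lay above the median gene, at 0.25. TTTGAA was found in 6 of 11 promoters of replication histones and in 6 of 14 of the cohesin, condensin and CTCF list. Over all tested genes, limma called 62 of 743 with TTTGAA below the median gene (8.34%) and 247 of 5626 without it (4.39%). The first count includes members of the G2 and mitosis list, and a match is a description of the letters only.

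Kpna2 had one of the smallest rises outside that list. It encodes importin alpha 1, a carrier of proteins into the nucleus, which belongs to the nuclear pore and lamina list. It had 6.27 and 5.71 in mitosis and 24.0 and 18.5 in late G1, and its reads were 615 and 686 against 197 and 201. The mitotic libraries were close to each other, as were those of late G1. The rise was 3.55-fold, or -2.59 ± 0.24 relative to the median gene (limma adjusted p = 1.16e-05). The list as a whole did not share this: of 44 members compared, 6 were at least 2-fold below the median gene and 2 above, and its median lay at -0.15.

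Immediate early genes, which growth factors and stress switch on without new protein synthesis, formed the list with the next lowest median. Of 33 members, 15 were at least 2-fold below the median gene and none 2-fold above, with a median rise of 11.0-fold. Limma called 11 of 31 below it and 0 above (18 and 0 at an unadjusted p under 0.05), but 4 below without late G1 library 1. Egr1, a zinc finger transcription factor gene on chromosome 18 (TSS at 34859824), had 2.27 and 2.59 in mitosis and 11.1 and 5.99 in late G1. Its late G1 values were above the mitotic ones by only 3.51-fold, -2.62 ± 0.45 relative to the median gene (adjusted p = 0.00126). Jund, an AP-1 subunit gene, had 18.4 and 23.9, then 129 and 110, a 5.64-fold rise (adjusted p = 0.00221). Dusp1, a phosphatase gene that ends MAP kinase signals, had 12.4 and 11.0, then 92.9 and 48.9, a 6.06-fold rise (adjusted p = 0.000328). At these genes the groups did not overlap, as at nearly all genes with the table's scale factors. Fos, another AP-1 subunit gene, had 4.07 and 2.32, then 49.1 and 20.9, and its difference of -1.0 ± 0.36 from the median gene missed the threshold (adjusted p = 0.0929). Nr4a1, an orphan nuclear receptor gene, had the highest ratio of the list, 42.8-fold, with 0.770 and 0.724 in mitosis and 43.8 and 20.2 in late G1, which did not pass either (adjusted p = 0.36).

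Targets of p53, the transcription factor that responds to DNA damage and other stress, lay mostly below the median gene. Their median was -0.41, and 25 of 33 had a ratio under that of the median gene, but calls fell on both sides. Of 33 members, 8 were at least 2-fold below and 2 at least 2-fold above the median gene. Limma called 11 of 29 below and 4 above, with 7 below in the fit without late G1 library 1. In every fit without 1 library, 7 of the 11 and 1 of the 4 were called. Those below included regulators of growth arrest. Plk2 (chromosome 13, TSS at 110395049) encodes a kinase of the Polo family, with values of 44.0 and 24.6 in mitosis, among the higher mitotic levels named here, and 265 and 132 in late G1. It rose 5.78-fold, -1.89 ± 0.23 relative to the median gene (adjusted p = 7.65e-05). Cdkn1a, which encodes the CDK inhibitor p21, had 27.9 and 18.3, then 231 and 174, an 8.76-fold rise (adjusted p = 0.000134). Bax, which encodes a protein that opens the mitochondrial outer membrane in apoptosis, had 16.6 and 9.56, then 147 and 95.1, a 9.25-fold rise (adjusted p = 0.00168). The groups did not overlap at any of the 3, as at nearly all genes with the table's scale factors.

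On the other side of the median gene, Perp, a gene for a desmosomal membrane protein, had 0.677 and 0.559 in mitosis and 55.3 and 31.3 in late G1. It rose 70.1-fold, 1.68 ± 0.29 above the median gene (limma adjusted p = 0.00129), and was called in every fit without 1 library. Fas, which encodes a death receptor, had 0.133 and 0.164, then 11.5 and 11.9, a 78.6-fold rise (adjusted p = 0.0203, and 0.137 without late G1 library 2). Ddit4l, a relative of the mTOR inhibitor REDD1, rose 40.2-fold (adjusted p = 0.0432, and 0.148, 0.313 and 0.0961 without mitotic library 1, late G1 library 1 or late G1 library 2). Mdm2, which encodes the ubiquitin ligase that removes p53, went from 9.81 to 288 in the combined columns, 29.3-fold, with no reads recovered. Asynchronous levels of these genes differ too: in the combined columns Plk2 had 36.1 there, Cdkn1a 117, Perp 6.31 and Fas 0.695.

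The promoters of Plk2 and Fas, the lowest and the highest of the p53 list, are shown for comparison with each other. Capitals mark TGACGTCA, the letters of a cyclic AMP response element, in Plk2 (chr13:110394794-110395093, plus strand), and the reverse complement of TTTGAA in Fas (chr19:34290409-34290708, plus strand).
Plk2: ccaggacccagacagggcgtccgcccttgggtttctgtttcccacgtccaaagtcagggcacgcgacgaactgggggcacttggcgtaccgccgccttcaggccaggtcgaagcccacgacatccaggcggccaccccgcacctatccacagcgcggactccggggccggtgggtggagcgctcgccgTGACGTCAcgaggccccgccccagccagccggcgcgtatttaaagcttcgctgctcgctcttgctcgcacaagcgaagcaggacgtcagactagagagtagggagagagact
Fas: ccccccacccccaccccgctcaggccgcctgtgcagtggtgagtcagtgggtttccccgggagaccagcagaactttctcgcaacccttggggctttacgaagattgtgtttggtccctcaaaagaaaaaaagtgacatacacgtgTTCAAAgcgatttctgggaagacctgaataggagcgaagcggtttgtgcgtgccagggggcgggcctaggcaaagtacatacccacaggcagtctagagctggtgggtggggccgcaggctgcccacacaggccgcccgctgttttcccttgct
The TGACGTCA match begins at -62 of the Plk2 start, and these letters were found in 3.59% of all 8545 promoters and in 3 of 21 of the p53 list. The TTTGAA match begins at -104 in Fas, and 4 of the 21 promoters held one. The p53 response element was searched as its consensus with no mismatch allowed, so weaker matches were not counted. It was found in none of the 21 and in 4 of all 8545. The windows of 300 bases leave out most of each intron and sequence further upstream, so a promoter without a match may still have a p53 site.

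**Figure D3:**
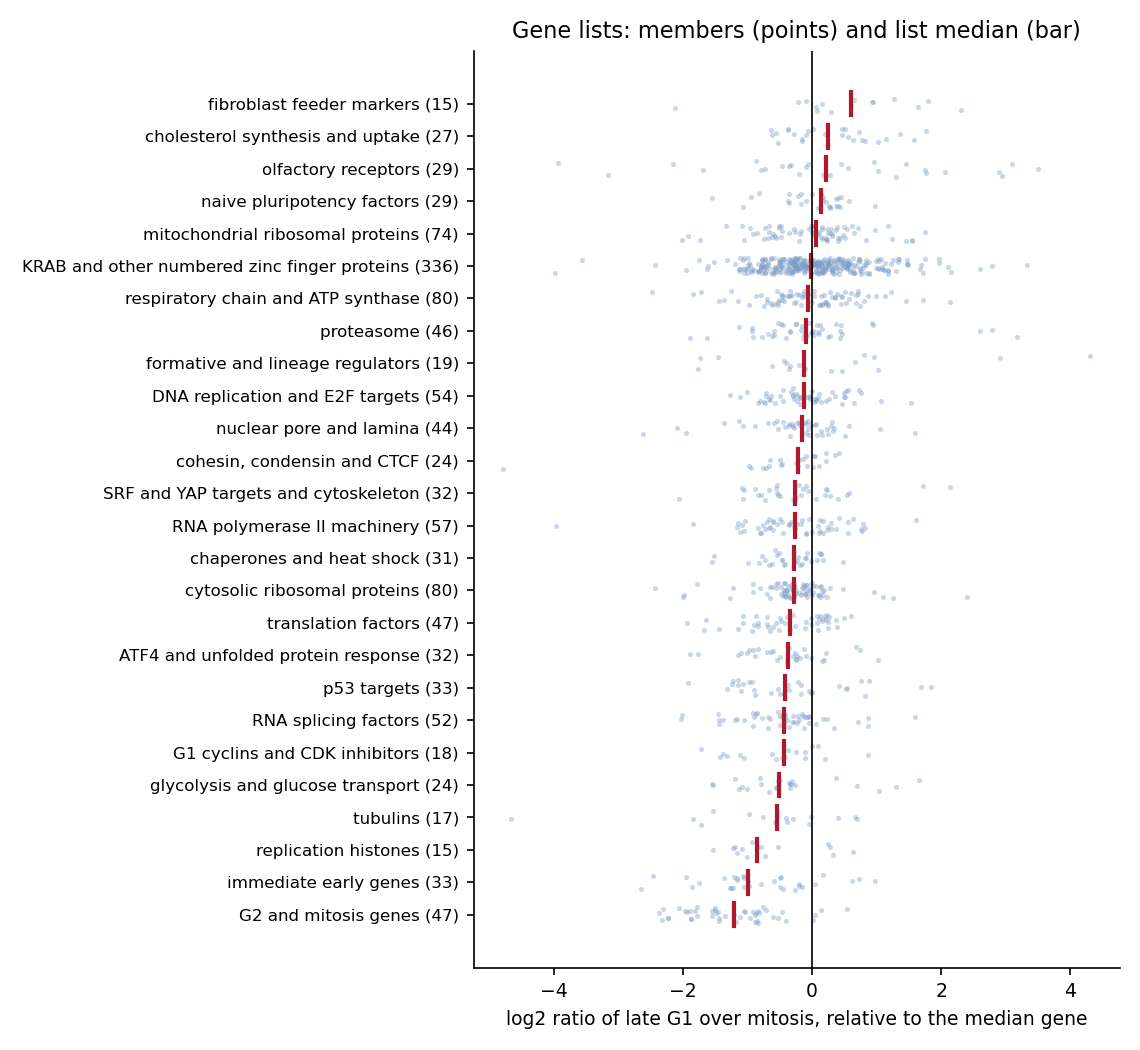
Log2 ratio of late G1 over mitosis relative to the median gene, for each compared member (points) of 26 gene lists, with the list median (bar) and the number of members in brackets. G2 and mitosis genes (median -1.20), immediate early genes (-0.99) and replication histones (-0.85) lie furthest to the left, and fibroblast feeder markers (0.61) furthest to the right.

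RNA splicing factors lay mostly below the median gene. Of 52, 44 had a ratio under that of the median gene, 9 were at least 2-fold below it and 1 above. Limma called 12 of 49 below and 2 above, with 6 and 7 below in the fits without late G1 library 1 and library 2. SR proteins, which bind exonic enhancers and guide splice site choice, were called mostly below. Srsf1, Srsf2, Srsf3, Srsf5, Srsf6, Srsf7, Srsf10 and Srsf11 were below and Srsf4 above. Srsf3 (chromosome 17, TSS at 29032690) had 24.4 and 15.3 in mitosis and 138 and 77.5 in late G1, a 5.43-fold rise and -1.98 ± 0.19 relative to the median gene (adjusted p = 1.27e-05). Srsf2 had 27.0 and 21.6, then 243 and 146, an 8.02-fold rise (adjusted p = 0.000295). Srsf4, of the same family, had 0.919 and 0.909, then 47.8 and 25.4, 0.86 ± 0.24 above the median gene (adjusted p = 0.0277, and 0.0907, 0.262 and 0.0501 without mitotic library 1, late G1 library 1 or late G1 library 2). Hnrnph1, a gene for an RNA-binding repressor or enhancer of exons that is not on the list, rose 5.69-fold (adjusted p = 7.86e-05). The other member called above was Prpf8, which encodes the protein at the core of the spliceosome. It had 1.40 and 1.19, then 62.6 and 41.4, a 40.1-fold rise (0.90 ± 0.20 above the median gene, adjusted p = 0.00836). The groups did not overlap at any of these genes with values given, as at nearly all genes with the table's scale factors.

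Some genes of other lists also rose less than the median gene. Hsp90aa1, which encodes the stress-inducible HSP90, had 25.4 and 17.0 in mitosis and 203 and 114 in late G1, a 7.47-fold rise (limma adjusted p = 0.000129). It was the only one of 28 tested chaperone and heat shock genes to be called. Among glycolysis and glucose transport genes, limma called 3 of 19 below and 1 above, each of them in every fit without 1 library. The 3 were Slc2a3, a glucose transporter gene (7.51-fold), Slc16a1, a lactate transporter gene (7.52-fold), and Pkm, which encodes pyruvate kinase (6.24 and 4.58, then 62.5 and 41.3, 9.59-fold). Pfkm, a phosphofructokinase gene, was on the other side, at 45.0-fold. Gapdh, with 14.8 and 9.91 in mitosis and 277 and 150 in late G1, rose 17.3-fold, and its difference of -0.33 ± 0.22 from the median gene was not called (adjusted p = 0.404). Eif4g2, a translation regulator gene, rose 5.72-fold (adjusted p = 0.000476). It was 1 of 8 translation factors of 41 called below, a count that was 2 without late G1 library 1 and 5 without library 2.

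Replication histones, whose genes are transcribed mainly in S phase, had a median of -0.85 relative to the median gene over 15 members, 6 of them at least 2-fold below it. The linker histone gene Hist1h1c had 98.6 and 99.3 in mitosis, the highest mitotic values named here, and 1055 and 800 in late G1, a 9.37-fold rise (limma adjusted p = 0.00183). Limma called 4 of 14 tested members below, and 2 in each fit without 1 of the late G1 libraries. Hist2h4 had 30.4 and 27.9, then 871 and 644, 26.0-fold, and was not called (adjusted p = 0.509). The difference between these 2 histone genes was not tested.

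The smallest p of all belonged to Bcl2l11, the gene of the cell death protein BIM (chromosome 2, TSS at 128126051). It had 11.3 and 9.80 in mitosis and 72.4 and 56.5 in late G1, a 6.11-fold rise, from 4571 and 4860 reads in mitosis and 2449 and 2531 in late G1. The depth is among the largest of the named genes and the standard error is small: -1.81 ± 0.15 relative to the median gene (adjusted p = 3.83e-06). Pim1, a survival kinase gene, had 8.02 and 5.59, then 40.9 and 19.9, a 4.47-fold rise (adjusted p = 5.78e-05). Rap2b, a small GTPase gene, had 54.0 and 33.9, then 484 and 259, an 8.46-fold rise (adjusted p = 2.85e-05). Arl6ip1, a gene for a protein that shapes the endoplasmic reticulum, rose 5.23-fold, and Vegfd, a lymphatic growth factor gene, 5.87-fold, each with an adjusted p of 7.65e-05. These genes were named for their small p in this fit, so their p-values are a description of the ranking.

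Pluripotency genes had a list median close to the median gene, at 0.13. All 24 tested naive pluripotency factors rose with the table's scale factors, and limma called 0 of the 24 above or below the median gene, with 4 above and 0 below at an unadjusted p under 0.05. The list had a median rise of 24.0-fold over 29 members, 2 of which were at least 2-fold below the median gene and none above. Pou5f1, which encodes OCT4 (chromosome 17, TSS at 35506019), had 4.60 and 3.20 in mitosis and 98.1 and 61.8 in late G1, a 20.5-fold rise, -0.06 ± 0.25 relative to the median gene (adjusted p = 0.906). Sox2, whose protein binds DNA together with OCT4, had 17.6 and 9.50, then 378 and 256, 23.4-fold (0.17 ± 0.25, adjusted p = 0.721). Nanog had 8.20 and 4.08, then 186 and 51.9, 19.4-fold (-0.30 ± 0.30, adjusted p = 0.592). Late G1 library 1 of Nanog was far above library 2. Klf4, a Krüppel-like factor gene, had 14.7 and 6.76, then 235 and 131, 17.0-fold (-0.27 ± 0.22, adjusted p = 0.496). Esrrb, an orphan nuclear receptor gene with no recovered reads, went from 3.12 to 93.5, 29.9-fold. A p that misses the threshold does not show that these genes rose alike. The extremes of the list were Fgf4, a growth factor gene that OCT4 and SOX2 activate (42.9-fold, adjusted p = 0.124, but 0.00122 without mitotic library 1 and 0.00101 without late G1 library 2), and Gbx2, a homeobox gene (7.50-fold, adjusted p = 0.37).

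Formative and lineage regulators, which mark the exit from naive pluripotency, had a median signal of 0.298 in mitosis and 8.56 in late G1, against 0.509 and 11.2 for all genes. Of 19, 3 lay at least 2-fold above and 3 below the median gene, against 11.0% and 8.56% of all genes. Limma called 0 of 17, with 1 above and 1 below at an unadjusted p under 0.05. Pou3f1, a POU factor gene, had 1.44 and 1.32, then 9.13 and 9.02, 6.59-fold, and a difference of -1.70 ± 0.54 (adjusted p = 0.0537).

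G1 cyclins and CDK inhibitors lay mostly below the median gene, with a median of -0.43. The list shares Cdkn1a with the p53 targets, so its call below the median gene is counted in both. Of 18, 15 had a ratio under that of the median gene, 6 were at least 2-fold below it and none above, and limma called 3 of 14 below, against 1 in each fit without 1 of the late G1 libraries. Ccnd1, which encodes cyclin D1, had 1.68 and 1.95, then 21.7 and 15.1, a 10.1-fold rise and -1.07 ± 0.28 relative to the median gene (limma adjusted p = 0.022, and 0.0871, 0.211 and 0.0652 without mitotic library 2, late G1 library 1 or late G1 library 2). Ccne1, which encodes cyclin E1, rose 20.3-fold, and its difference of -0.10 ± 0.56 was not called (adjusted p = 0.939). Myc, a growth regulator gene, had 0.837 and 1.62, then 18.5 and 28.3, 19.0-fold (-0.13 ± 0.50, adjusted p = 0.904). Of 54 DNA replication and E2F target genes, 2 were at least 2-fold above and 3 below the median gene, against 11.0% and 8.56% of all genes. Cdc6, which loads the replicative helicase onto origins, had 0.498 and 0.253, then 26.3 and 21.3, a 63.2-fold rise (1.62 ± 0.35, adjusted p = 0.006), and was called in every fit without 1 library. The other calls of that list, Pole2 above (adjusted p = 0.0433) and Orc6 below (adjusted p = 0.0479), were lost without late G1 library 1, at 0.145 and 0.385, and without library 2, at 0.0517 and 0.234, and Pole2 also without mitotic library 2, at 0.321.

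The large housekeeping groups had medians from slightly below the median gene to just above it. Cytosolic ribosomal protein genes, with a median signal of 8.06 in mitosis and 160 in late G1, lay at -0.29 over 80 members, 60 of them under the median gene, and limma called 1 of 76 above and 1 below. Mitochondrial ribosomal protein genes lay at 0.06 (74 members), respiratory chain and ATP synthase genes at -0.06 (80) and proteasome genes at -0.10 (46). Genes for RNA polymerase II and its cofactors lay at -0.26 (57), and limma called 4 of 46 below and 1 above, with 0 and 2 below in the fits without late G1 library 1 and library 2. The 336 numbered zinc finger genes, many of them KRAB repressors of transposable elements, lay at -0.01, with 34 at least 2-fold above and 21 below, shares near those of all genes. Psmd8, a proteasome lid gene, and Cox6b2, a testis form of a cytochrome oxidase subunit, were departures from their lists, at -1.85 ± 0.31 and -2.39 ± 0.34 (adjusted p = 0.00118 and 0.000295), each called in every fit without 1 library.

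The lists of stress, cytoskeleton and chromosome genes given here had medians below the median gene, from -0.54 to -0.21. ATF4 targets and genes of the unfolded protein response, which respond to amino acid lack and misfolded protein, had a median of -0.37 over 32 members, and limma called 4 of 29 below and 0 above (10 and 1 at an unadjusted p under 0.05). The count below was 7 without mitotic library 1, 1 without late G1 library 1 and 2 without late G1 library 2. Sesn2, a gene for an amino acid sensor that restrains mTOR and is also a p53 target, had 10.5 and 6.00 in mitosis and 95.9 and 67.7 in late G1, a 9.93-fold rise (adjusted p = 0.00072), and was called in every fit without 1 library. Ppp1r15a, which encodes the subunit that reverses the block of translation initiation, had 5.13 and 7.34, then 36.7 and 43.2, a 6.41-fold rise (adjusted p = 0.00923, and 0.169 without late G1 library 1). SRF and YAP targets and cytoskeleton genes had a median of -0.26 over 32 members, with 6 of 26 called below and 0 without late G1 library 1. Among tubulins (17 members, median -0.54), Tuba1c, an alpha-tubulin gene, had 4.73 and 5.05, then 50.3 and 23.6, a 7.56-fold rise (adjusted p = 0.00313), and was called in every fit without 1 library. Smc4, a core subunit gene of condensin, had 1.62 and 1.17, then 19.4 and 11.8, an 11.2-fold rise (adjusted p = 0.00679, and 0.0734 without late G1 library 1). It belongs to the cohesin, condensin and CTCF list, whose median over 24 members was -0.21.

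Olfactory receptor genes, which stem cells are not known to use, gave a view of weak genes. Their median signal was 0.122 in mitosis and 2.96 in late G1, and their median rise of 25.3-fold over 29 members was near that of all genes. Of the 29, 10 were at least 2-fold above the median gene and 4 below, while limma called 0 of the 8 with enough reads, with 0 above and 1 below at an unadjusted p under 0.05. Over all compared genes with recovered reads, 21.3% of those with under 20 reads in the 4 libraries were at least 2-fold above the median gene and 40.1% below, against 5.76% and 5.07% in the best covered of 6 groups by reads.

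Of the genes above the median gene, those with the smallest p came from many functions. Wnt6, which encodes a secreted signalling ligand (chromosome 1, TSS at 74771893), had 0.379 and 0.214 in mitosis and 70.7 and 36.6 in late G1. Both late G1 libraries were far above both mitotic ones, and the combined rise was 181-fold, 3.06 ± 0.37 above the median gene (limma adjusted p = 7.65e-05). Ttll10, a gene of the tubulin tyrosine ligase-like family, had 0.413 and 0.202, then 51.6 and 33.3, a 138-fold rise (2.74 ± 0.29, adjusted p = 2.85e-05). Slc29a4, a monoamine transporter gene, had 0.472 and 0.475, then 64.7 and 43.7, a 114-fold rise (2.41 ± 0.27, adjusted p = 3.79e-05). In reads these were 100 and 123 in mitosis and 1144 and 1023 in late G1. Panx1, a membrane channel gene, rose 128-fold. Rtkn, which encodes an effector of small GTPases, had 3.37 and 2.82, then 340 and 181, 84.2-fold. Rab23, a small GTPase gene of Hedgehog signalling, rose 72.0-fold and Rbm17, a splicing factor gene, 69.1-fold, each with an adjusted p of 7.65e-05. These were named for their small p, and all of them were called in every fit without 1 library. Their level in asynchronous cells was below that of late G1: the combined values were 53.6 and 10.9 for Wnt6, 54.2 and 6.55 for Slc29a4, 42.5 and 9.22 for Ttll10 and 20.3 and 6.09 for Panx1, late G1 first.

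The largest ratios belonged to other genes. Among 7034 genes whose mean signal reached the median over genes, 8.49, Gpr132, a receptor gene, led with 0.0216 in mitosis and 35.7 in late G1, 1656-fold, with no reads recovered. That mean includes the late G1 column, and 7 of the 12 highest genes, Gpr132, Cpz, Ankrd65 and Mdga1 among them, would not reach 8.49 on the other 3 columns, so the filter favours genes that are high in late G1. Cpz, which encodes a secreted carboxypeptidase, had 0.0748 and 0.122 in mitosis, from 6 and 12 reads, and 71.2 and 43.1 in late G1, from 477 and 382. It rose 580-fold, 4.73 ± 0.90 above the median gene (limma adjusted p = 0.00273). Ankrd65, an ankyrin repeat gene, had 0.0920 and 0.193, then 77.7 and 40.7, a 415-fold rise (adjusted p = 0.0022). Mdga1, a gene for a neuronal adhesion protein, had 0.230 and 0.105, then 55.5 and 28.5, a 251-fold rise (adjusted p = 0.00103). Late G1 was far above mitosis in each library at these 3 genes, and they were called in every fit without 1 library. In asynchronous cells the combined values were 3.21 for Cpz, 3.38 for Ankrd65 and 4.14 for Mdga1. Oxld1, a small oxidoreductase-like gene, had 2.06 and 1.05, then 969 and 332, 419-fold (adjusted p = 0.0348), and was not called without late G1 library 1 (0.194) or library 2 (0.052). Others of the 12 highest rested on very few mitotic reads: Arl11, a small GTPase gene, on 1 and 0 (adjusted p = 0.227), and Saa3, an acute phase gene, on 0 and 1 (adjusted p = 0.518).

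Rac3, a small GTPase gene, combined a large rise with a high level. It had 12.3 and 7.18 in mitosis and 733 and 622 in late G1, a 69.6-fold rise (1.74 ± 0.34 above the median gene, limma adjusted p = 0.00305), and was among the 10 highest late G1 signals. Sfi1, a centrin-binding centrosome gene, was also among them, with 13.2 and 10.2, then 720 and 466, a 50.6-fold rise (adjusted p = 0.000432). In asynchronous cells the combined value of Rac3 was 116 and that of Sfi1 140.

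**Figure D4:**
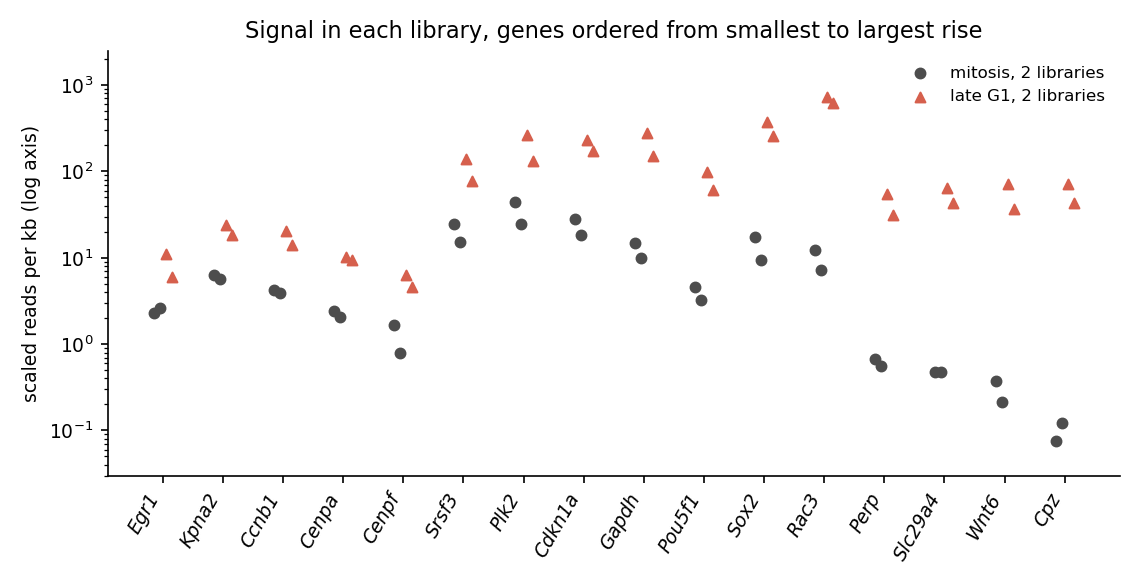
Scaled reads per kb (log axis) of 16 genes in the 2 mitotic libraries (dots) and the 2 late G1 libraries (triangles), ordered by the rise of the combined columns from Egr1 (3.51-fold) to Cpz (580-fold). Late G1 is above mitosis in both libraries of each gene, and the gap widens from left to right.

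Cholesterol genes and fibroblast markers had list medians above the median gene. Of 27 genes of cholesterol synthesis and uptake, 5 were at least 2-fold above and none below, with a median of 0.25. Limma called 2 of 26 above and 0 below (5 and 2 at an unadjusted p under 0.05), against 4.38% and 4.74% of all tested genes. Hmgcs1, which makes the substrate of HMG-CoA reductase, had 0.966 and 0.842, then 69.5 and 32.4, a 56.4-fold rise (adjusted p = 0.00479, and 0.0760 without late G1 library 1). Srebf2, which encodes the transcription factor that controls the pathway, had 0.638 and 0.557, then 38.3 and 19.2, a 48.1-fold rise (adjusted p = 0.00564, and 0.0866 without late G1 library 1).

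The 15 compared fibroblast markers had a median rise of 33.3-fold, with 4 at least 2-fold above the median gene and 1 below. Col1a1, a collagen gene, had 0.0952 and 0.0778 in mitosis, from 18 reads each, and 11.5 and 7.22 in late G1, a 108-fold rise (limma adjusted p = 0.0201, and 0.0816 and 0.0719 without late G1 library 1 or library 2). Loxl1, which encodes a collagen crosslinking enzyme, had 0.786 and 0.380, then 36.4 and 24.7, 52.5-fold (adjusted p = 0.00191). Fn1, the fibronectin gene and the highest of these markers, had 5.05 and 1.47, then 81.5 and 41.2, 18.8-fold, and was not called (adjusted p = 0.998). The markers summed to 0.0405% of the mitotic column, 0.0501% of early G1, 0.0597% of late G1 and 0.0434% of the asynchronous column. The part of feeder cells in these genes was not tested.

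Few genes were near or below their mitotic signal in late G1. In all, 35 genes were less than 2-fold higher and 10 of them were lower. Reads were recovered for 28 of the 35, which had a median of 2 reads over both late G1 libraries, and 27 had fewer than 10. Pirb, an immune receptor gene and the only one at least 2-fold lower, had 11 and 42 reads in mitosis and 1 and 1 in late G1. Its values were 0.405 and 1.26, then 0.440 and 0.333, so the groups overlapped (limma adjusted p = 0.82 with the table's scale factors). Id1, an inhibitor of differentiation gene, had 8.37 in mitosis and 7.12 in late G1 in the combined columns, on 0 and 3 late G1 reads, and Tubb4b, a beta-tubulin gene, 24.9 and 21.4 on 3 and 3, and neither was called relative to the median gene (adjusted p = 0.195 and 0.0831). Esco2, a cohesin acetyltransferase gene that acts in S phase (chromosome 14, TSS at 65833909), had the most late G1 reads of the 28, at 11 and 7, against 137 and 133 in mitosis. Its values were 7.78 and 6.17 in mitosis and 7.48 and 3.59 in late G1, which overlap, and it lay -4.72 ± 0.89 from the median gene (adjusted p = 0.00247, and 0.178 and 0.052 without late G1 library 1 or library 2). Its combined value was 12.3 in early G1 and 8.62 in asynchronous cells.

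A further 331 genes were listed at 0 in mitosis and 39 in late G1, with 17 at 0 in both, and have no ratio. Some of the first had high late G1 signal. Adgrb1, an adhesion receptor gene, was listed at 0 in mitosis and at 303 in late G1, and at 161 in early G1 and 36.1 in asynchronous cells. Rrm2, which encodes the small subunit of ribonucleotide reductase, was listed at 0 and 87.5, and Oxa1l, a mitochondrial insertase gene, at 0 and 104. No reads were recovered for these genes, and a listed 0 may be a missing estimate.

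The size of the rise varied with the length of the gene and with its level. Genes with a RefSeq span under 2 kb had a median ratio of -0.21 on the log2 scale relative to the median gene and those of 2 to 5 kb of -0.22. The median was -0.05 at 10 to 20 kb, 0.13 at 100 to 200 kb and 0.33 at 200 kb and over. When genes were put in 5 equal groups by asynchronous signal, the lowest group had a median of 0.34 and the highest -0.21. Among tested genes of 2 to 5 kb limma called 15 of 1284 above and 60 below, and among those of 20 to 50 kb 230 of 3482 above and 160 below. Of the genes of 200 kb and over none was tested, because reads were recovered mostly for shorter genes, with a median span of 15661 bp against 86366 bp for the rest. Length and level vary together, and their separate parts were not tested.

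**Figure D5:**
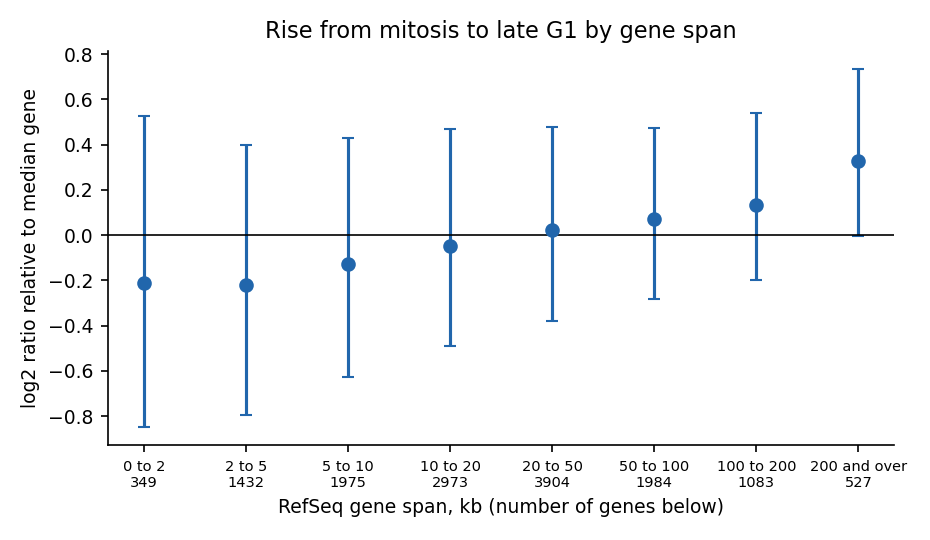
Median (points) and range from the 25th to the 75th percentile (bars) of the log2 ratio of late G1 over mitosis relative to the median gene, for genes binned by RefSeq span, with the number of genes under each bin. The medians run from -0.21 under 2 kb to 0.33 at 200 kb and over, and the ranges of neighbouring bins overlap.

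By chromosome, medians lay between -0.07 and 0.10 on the autosomes and at -0.20 on the X, over 401 genes. Of 283 tested X-linked genes limma called 1 above the median gene, 0.353% against 4.38% of all tested genes, and 12 below, 4.24% against 4.74%. By promoter sequence, medians differed little and the share of genes far above the median gene differed more. In 5 groups by CpG count the medians lay between -0.07 and 0.12, the highest in the group with the fewest CpG. In that group 19.6% of genes were at least 2-fold above the median gene, against 6.10% in the group with the most, and 11.3% against 5.18% were at least 2-fold below it. The group with the fewest CpG also had the lower signal, with a median of 7.09 in late G1 against 11.9. The 5 groups by GC content had medians between -0.03 and 0.03.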

How the data were processed

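The authors deposited 1 table of normalized PRO-seq signal per gene, with 1 column for each group and 2 libraries behind each column, per the labels. The submitters' processing notes name GRCm38/mm10 as the build and list SAMtools, Picard, cutadapt and Bowtie2 with no versions. Gene assignment, use of strand, scaling and the way libraries were combined are not stated in these sources, so overlapping genes may share reads. A class column of the table was not used. Ratios were taken from the columns as deposited, with no pseudocount, for genes above 0 in both and with a mean of at least 0.5. The members and gene lists were chosen with earlier results of these data known. The named genes are the 12 highest and 12 lowest ratios of genes whose mean signal reaches the median (predicted and clone names left out), the 3 extremes at each end of each list, 17 genes given always, genes under 2-fold, the 10 highest late G1 signals and 6 genes listed at 0 in mitosis, from which the text gives a selection. The 12 smallest p-values on each side, and Dusp1, the other Srsf genes, Loxl1, Srebf2, Tuba1c and Pirb, were chosen after their values were seen.

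Each value was decomposed into whole reads of 2 libraries, their scale factors and a counted length, and a solution was found for 73.7% of genes. A test on single libraries was added after the data were seen: limma 3.58.1 (voom, R 4.3.3) on these reads, with 0.5 added before log2, at least 20 reads over 4 libraries and an adjusted p under 0.05, fitted once with the table's scale factors and once with each library centred on its median gene. The test was checked on simulated reads that had the same dispersion in all genes and libraries. The wider spread between the mitotic libraries was not simulated, so the check does not cover it. The planned fits assumed a column per library and could not be run on the table itself. Symbols matched RefSeq (GRCm38.p6) directly for 14401 genes, through a synonym for 206 and not for 254.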

Additional observations from a re-analysis of the deposited data

How the results depend on the processing

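The size of the rise rests on the authors' scaling. The median log2 ratio of 4.45 became 0.18 with equal totals and 3.43 with a pseudocount of 0.5. It was -0.025 with equal column medians and -0.039 after quantile normalization. Those 2 settings bring the median to equal signal by construction, so they do not test the direction. Unscaled reads, which also depend on depth, were a median of 1.54-fold to 2.12-fold higher in late G1 over all pairings of libraries. Genes at least 2-fold higher then numbered 1535 with equal medians, 2108 with equal totals and 1060 after quantile normalization, and genes at least 2-fold lower 1306, 876 and 1271. Leaving out overlapping genes kept 7834 higher of 7858. Genes lower numbered 20 with zeros kept, and 0 with a minimum mean of 2.5, with pseudocounts of 0.1 and 0.5, and in limma. Without overlapping genes, 916 of 7858 were at least 2-fold above the median gene and 741 at least 2-fold below. Of 14467 genes, 1027 were above with a pseudocount of 0.1 and 2002 below with a pseudocount of 0.5. Limma, which set an adjusted p and no fold, called 458 of 10455 above and 496 below. Leaving out 1 library, limma calls ranged from 226 to 793 above, from 145 to 1100 below and from 9846 to 10390 that rose, the lone library of a group being assumed to vary like the others. Of 234 list medians under the other settings 222 moved by less than 0.59 on the log2 scale and 12 by more. That bound is the spread of the median log2 ratio over libraries. It exceeds the distance of most lists from the median gene, so a smaller move does not show that a list kept its place. A change of sign was looked for only in lists at least 2-fold from the median gene, where none was found. The recovered libraries carry no replicate letter, so both possible pairings of mitotic with late G1 libraries were fitted as a replicate block, a choice made after seeing the data. Pairing library 1 with 1 gave 779 genes above and 976 below the median gene, and pairing library 1 with 2 gave 346 and 402, each on 1 residual degree of freedom, and genes that rose numbered 10285 and 10318. Mitotic reads limit the precision: 14.2% and 13.6% of recovered genes had under 10 reads in the mitotic libraries, against 6.82% and 7.87% in late G1.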
